A study of Mus musculus with 18 samples.

Results

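The genes described here encode the proteins of the small ribosomal subunit. They were taken from the gene count table by symbol: every symbol starting with Rps, leaving out the ribosomal S6 kinases (Rps6k), the binding protein Rps19bp1 and names of pseudogenes (-ps). The rule gave 33 of the 11243 genes of the table. They include Rps6, a substrate of the S6 kinases, Rpsa, also known as the laminin receptor, and Rps27l and Rps27rt, which are paralogs of Rps27.

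The cells were RAW264.7, an established mouse macrophage line, given vehicle (DMSO, called control), 500 ng/mL LPS for 6 h, or the same LPS after 15 min with 100 nM torin1. LPS (lipopolysaccharide, here from Salmonella) is a bacterial cell wall component that activates macrophages, and torin1 inhibits the kinase mTOR. The study asked how LPS and mTOR alter the mRNAs that macrophages translate. Total RNA and RNA from pooled heavy polysome fractions (mRNAs carrying several ribosomes) were sequenced from each of 9 lysates, which came from 3 experiments with all 3 treatments, giving 18 libraries. Torin1 without LPS was not analysed here. All 3 treatments therefore share a single transformed line, and the torin1 comparisons hold only in the presence of LPS.

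The small subunit binds mRNA, scans it and holds the decoding centre where codons meet transfer RNAs. Most mRNAs for ribosomal proteins belong to the TOP (terminal oligopyrimidine) mRNAs, which begin with a C followed by an unbroken run of pyrimidines. Active mTOR keeps TOP mRNAs on polysomes, and when mTOR is inhibited they leave polysomes while the mRNA itself is kept.

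Sequence at the annotated start of transcription was taken from RefSeq (build GRCm38.p6), which held a start for 25 of the 33 genes and none for others such as Rps14, Rps20, Rps27a and Rps29. The lines show 30 bases each, 10 before the annotated start and the first 20 of the transcript, so that letter 11 is the first transcribed base, and capitals mark the longest run of C and T at or near it. The first 5 have the TOP form, and the last 3 lack it. They are a selection and do not stand for all annotated starts of the members.
Rps6, chr4:86857348-86857377, minus strand: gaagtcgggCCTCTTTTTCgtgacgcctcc
Rps18, chr17:33955646-33955675, minus strand: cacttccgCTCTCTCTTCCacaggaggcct
Rps15a, chr7:118116128-118116157, minus strand: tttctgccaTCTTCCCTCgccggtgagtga
Rps27, chr3:90213629-90213658, minus strand: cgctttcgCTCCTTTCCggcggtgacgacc
Rps27rt, chr9:114982720-114982749, minus strand: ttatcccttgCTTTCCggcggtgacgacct
Rps27l, chr9:66946076-66946105, plus strand: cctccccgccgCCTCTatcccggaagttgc
Rpsa, chr9:120127756-120127785, plus strand: ttatttaaggacgTCatttccggccgcccg
Rps4x, chrX:102189372-102189401, minus strand: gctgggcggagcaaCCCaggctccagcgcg

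A first base C followed by at least 4 pyrimidines was found at an annotated start of 7 of the 25 genes (28.0%), namely Rps6, Rps10, Rps15a, Rps18, Rps21, Rps27 and Rps27rt. The same form stood at a start of 2.92% of the 8568 genes of the count table with an annotated start. Rps27rt is a copy of Rps27, and their printed sequences largely repeat each other, so these starts are not separate cases. A run of at least 7 pyrimidines lay at or near the start, reaching between the 3rd base before it and base 5 of the transcript, in 9 of the 25 genes (36%) and in 14.6% of the 8568. An annotated start is the end of a transcript model and was not measured in these cells.

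The libraries held 27800983 to 47725557 counts. The small subunit genes took 1.18% to 1.43% of the counts of total RNA libraries, 1.68% to 2.13% of polysome libraries of control and LPS-treated cells, and 1.06% to 1.43% of polysome libraries after torin1. All 8 macrophage markers looked up (such as Csf1r and Cd68) were in the table, and 0 of 8 markers of other cell types were. Small subunit genes have many processed copies in the mouse genome, and reads that match several copies can be lost or credited to another copy. Of all 50-base windows of its coding sequence, a member shared a median of 90.1% with other annotated transcripts (GENCODE M21), and 11 members shared every window. Rps3 shared 8.09%. Counts are in this sense partial, and a level of one gene against another carries that limit. A change between treatments compares the counts of the same gene, but these can also include reads of other copies.

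In control cells the members differed widely in level. Values are CPM (counts scaled to library size and composition by TMM), divided here by coding length because genes of different length are compared. Rps3, which lines the mRNA entry channel, had the highest level in total mRNA, 1654 ± 206 CPM per kb (SD, n = 3). Rps14, a protein of the platform, followed with 1372 ± 123.7 CPM per kb, a difference of about the size of their spread. Rps2 had the lowest level at 42.6 ± 8.13 CPM per kb, and 84.1% of its coding windows are shared with other transcripts.

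Small subunit mRNAs were enriched on heavy polysomes relative to the average mRNA in control cells. The difference of polysome and total log2 CPM in a lysate, read here as translation efficiency (TE), had a median over the 33 genes of 0.43, 0.57 and 0.48 in the 3 control experiments, against 0.06, -0.00 and 0.02 over all genes. With LPS the medians were 0.67, 0.48 and 0.55. With LPS and torin1 they were -0.07, 0.05 and -0.24, so that each torin1-treated lysate lay below each control and each LPS lysate. The means over experiments were 0.50 ± 0.07 in control, 0.57 ± 0.10 with LPS and -0.09 ± 0.14 with torin1 (SD, n = 3). The large subunit genes (50 genes) stood at 0.40 ± 0.07, 0.53 ± 0.06 and -0.00 ± 0.11.

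**Figure D1:**
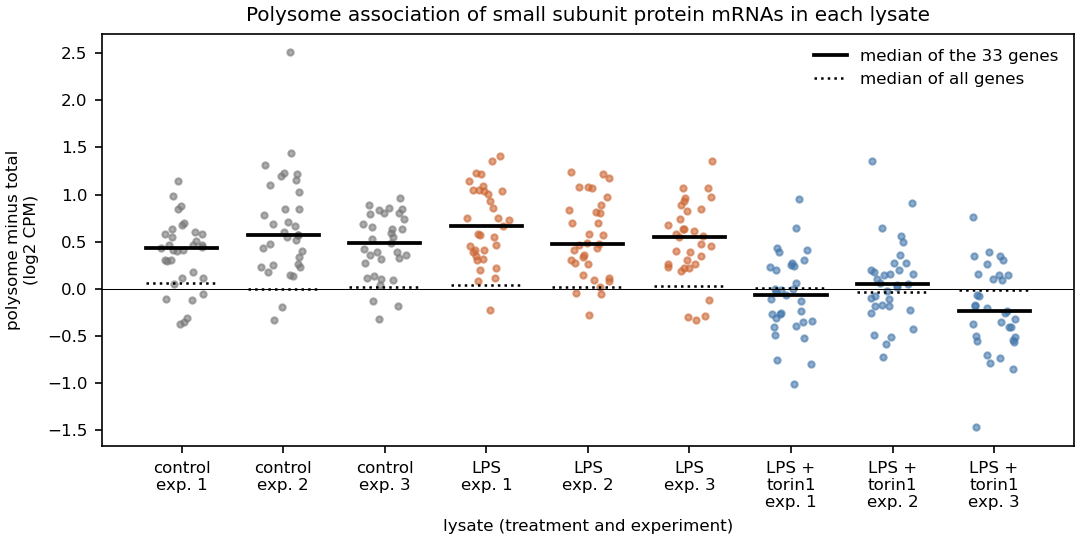
Polysome minus total log2 CPM (y axis) of the 33 genes in each of the 9 lysates (x axis), 1 point a gene, with the median of the 33 genes (solid line) and of all genes (dotted line). The medians of the torin1-treated lysates lie between -0.24 and 0.05, and those of the other lysates between 0.43 and 0.67.

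LPS for 6 h left total mRNA of the small subunit genes moderately higher relative to the typical gene. The median log2 change over the 33 genes was 0.28 (1.22-fold), against -0.02 over all genes. Levels are relative to the other mRNAs of a library, so amounts of mRNA per cell were not measured. At a false discovery rate of 0.25, the threshold of the study (edgeR's quasi-likelihood test, Benjamini-Hochberg adjusted over all genes), 25 of 33 were called and each was higher, where 32.2% of all genes were called higher. In 20 of 33 genes the difference was positive in all 3 experiments. Such agreement of the experiments was not counted over all genes, here or below. The sign of the median depends on the scaling, but under both scalings used here it lay above the median over all genes. With library totals alone, an alternative chosen after seeing the data, the median over the 33 genes was -0.08 and that over all genes -0.38. In that scaling 5 genes were called, all lower.

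Among the called genes, Rps27, which carries a zinc finger, rose by 0.44 ± 0.17 (log2 change ± SE, adjusted p = 0.0489). Its total CPM was 277, 349 and 258 in control cells and 494, 359 and 349 with LPS. The groups met at 349 CPM, and experiment 1 with LPS lay well above the other libraries. Rps10, a protein of the head, rose by 0.44 ± 0.18 (adjusted p = 0.0675), and Rps28 by 0.38 ± 0.12 (adjusted p = 0.0219). Rps27rt rose by 0.46 ± 0.23 (adjusted p = 0.136). Rps19 had the smallest rise among the called genes, 0.17 ± 0.10 (adjusted p = 0.22). The highest value was that of Rps16, 0.64 with an SE of 0.49 (adjusted p = 0.315). The genes that were not called were Rps2, Rps12, Rps15, Rps16, Rps21, Rps26, Rps27l and Rpsa. Rpsa changed by 0.15 ± 0.11 (adjusted p = 0.286) and Rps27l by -0.04 ± 0.14 (adjusted p = 0.836). The called count was 7 at a false discovery rate of 0.05 and 16 without experiment 1.

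In polysome-associated mRNA the median change with LPS was 0.42 (1.33-fold) over the 33 genes and -0.03 over all genes. Called were 20 of 33, each higher, where 26.4% of all genes were called higher. The largest changes were those of Rps27rt at 0.72 ± 0.28 (adjusted p = 0.0696), Rps27 at 0.64 ± 0.25 (adjusted p = 0.0672) and Rps4x, the X-linked member, at 0.59 ± 0.18 (adjusted p = 0.0299). The smallest were -0.03 ± 0.60 for Rps16, and 0.06 for Rps2 and Rps10, none of which was called. The count rests on single experiments: it was 0 without experiment 1, 9 without experiment 3 and 21 without experiment 2. With library totals alone 0 were called and the median was 0.06, against -0.38 over all genes.

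No member was called for a change in TE with LPS. The interaction of RNA type and treatment (edgeR, lysate as a block, with a fold of at least 1.2) called 0 of 33 members and 0% of all genes, and at an unadjusted p under 0.05 it held 1 member and 164 of all genes. DESeq2 and an analysis of partial variance also called 0 members. The median change in TE over the 33 genes was 0.13 against 0.00 over all genes, and by experiment the median change had a mean of 0.12 ± 0.20 (SD, n = 3), a spread that includes 0. The highest values were those of Rps27rt (0.35 ± 0.17), Rps15a (0.33 ± 0.15) and Rps4x (0.31 ± 0.17), and the lowest those of Rps16 (-0.73 ± 0.48), Rps10 (-0.36 ± 0.18) and Rps29 (-0.30 ± 0.29).

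Torin1 given before LPS left small subunit mRNAs lower on heavy polysomes than LPS alone, with little difference in total mRNA. The median log2 change of polysome-associated mRNA was -0.74 (0.599-fold) over the 33 genes and -0.00 over all genes. Called were 28 of 33, each lower, where 18.2% of all genes were called lower. In 31 genes the value was lower with torin1 in all 3 experiments. With library totals alone 26 were called, each lower, with a median of -0.67.

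**Figure D2:**
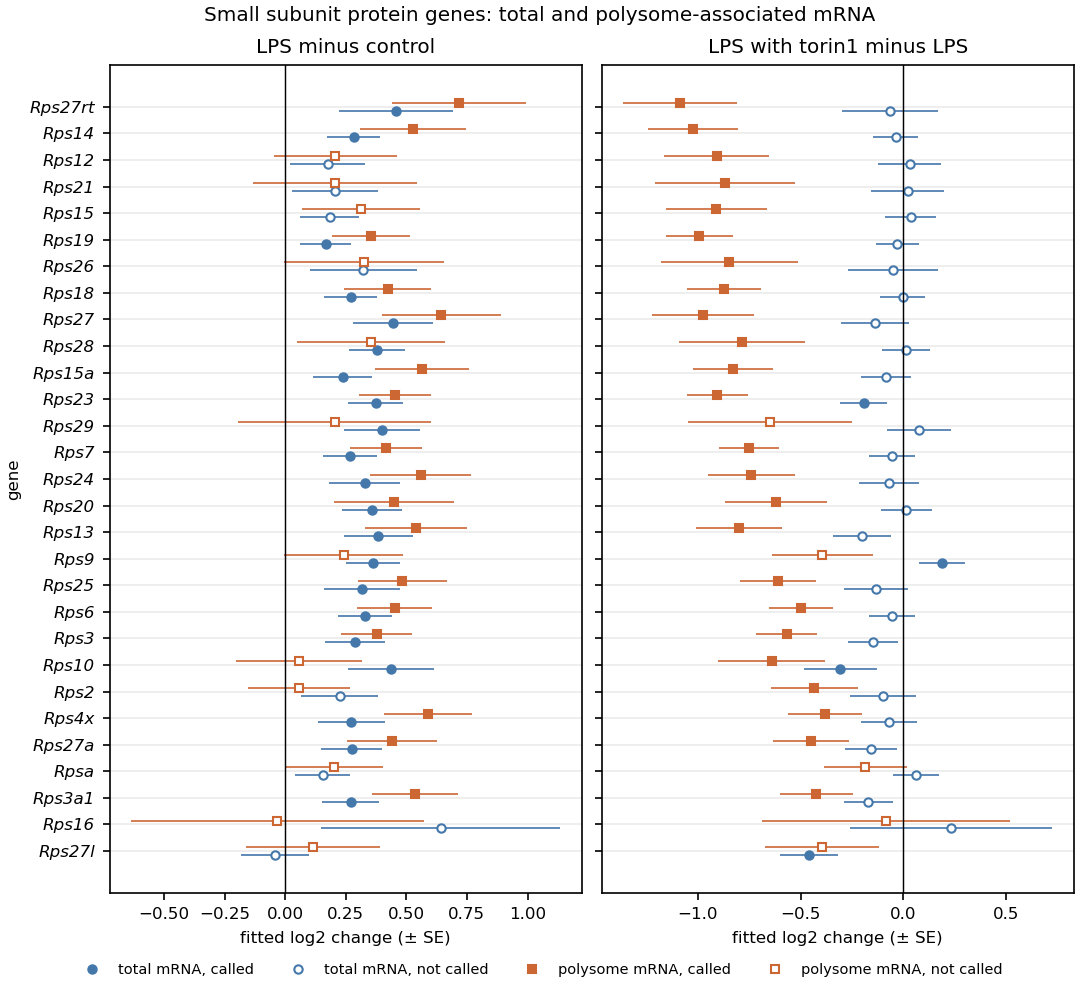
Fitted log2 changes ± SE (x axis) of total (blue circles) and polysome-associated mRNA (orange squares) of 29 of the 33 genes (y axis), for LPS minus control on the left and LPS with torin1 minus LPS on the right; filled symbols passed a false discovery rate of 0.25. On the right, the polysome values lie between -1.08 and -0.08, and most total values near 0.

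Rps19, a head protein needed for maturation of the small subunit rRNA, had polysome values of 580, 458 and 541 CPM with LPS and 262, 293 and 225 CPM with LPS and torin1. The groups did not overlap. The fitted change was -0.99 ± 0.16 (log2 ± SE, adjusted p = 0.0037). Rps14 had 2051, 1574 and 1404 CPM with LPS and 886, 971 and 578 CPM with torin1, again with no overlap, and fell by 1.02 ± 0.22 (adjusted p = 0.0133). The lowest change was that of Rps27rt, which fell by 1.08 ± 0.28 (adjusted p = 0.0283). Rps6 had 910, 708 and 850 CPM with LPS and 591, 603 and 522 CPM with torin1. The groups did not overlap, and the change was -0.50 ± 0.15 (adjusted p = 0.0569). The smallest fall among the called genes was that of Rps4x, -0.38 ± 0.18 (adjusted p = 0.186).

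The 5 genes not called in polysome-associated mRNA were Rps9, Rps16, Rps27l, Rps29 and Rpsa. Rpsa had 707, 751 and 605 CPM with LPS and 509, 783 and 486 CPM with torin1, so the groups overlapped through experiment 2, and its change was -0.19 ± 0.20 (adjusted p = 0.58). Rps16 stood at -0.08 ± 0.60 (adjusted p = 0.943). Rps29, a zinc-binding protein of the head, had a change of -0.65 with a larger error (SE 0.40, adjusted p = 0.306). The count of 28 fell to 14 without experiment 1 and to 13 without experiment 3, and was 32 without experiment 2 and 16 at a false discovery rate of 0.05.

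In total mRNA the same comparison had a median change of -0.06 over the 33 genes and 0.00 over all genes. Called were 5 genes, where 26.4% of all genes were called lower and 27.3% higher. Of these 4 were lower, among them Rps10, Rps23 and Rps27l, and Rps9, which helps to set decoding accuracy, was higher. Rps27l had the largest of these changes, -0.46 ± 0.14 (adjusted p = 0.0346), and Rps10 followed with -0.31 ± 0.18 (adjusted p = 0.22). Rps23 fell by 0.19 ± 0.11 (adjusted p = 0.227). Rps9 rose by 0.19 ± 0.11 (adjusted p = 0.238). Rps13 at -0.20 ± 0.14, Rps29 at 0.08 ± 0.16 and Rps16 at 0.23 ± 0.49 were not called. With the experiment number as a block, 8 were called (1 higher and 7 lower), and with only the libraries of these 2 treatments 2 were called.

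Adding torin1 to LPS lowered TE of the small subunit mRNAs. Over the 33 genes the median change was -0.67 (0.628-fold), against -0.03 over all genes, and by experiment the mean of the median change was -0.66 ± 0.18 (SD, n = 3). Called were 11 of 33 members, each lower, where 0.222% of all genes (25 genes) were called lower. Of those 25 genes, 11 were small subunit genes, 10 were large subunit genes, and 4 were others: Tpt1, itself a TOP mRNA, Cox7a2l, and the gene models Gm11808 and Rps18-ps3. At an unadjusted p under 0.05 there were 28 of the 33 members and 303 of all genes. In 29 genes the change was negative in all 3 experiments.

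The 11 called genes included Rps7, Rps13, Rps14, Rps15, Rps15a, Rps18, Rps19, Rps23, Rps27 and Rps27rt. Rps19 had the lowest adjusted p, with a change of -0.99 ± 0.13 (adjusted p = 0.0361). Its polysome minus total difference was 0.17 ± 0.08 in control, 0.36 ± 0.08 with LPS and -0.63 ± 0.14 with torin1 (log2, SD, n = 3). This placed it at the 57.3, 67.8 and 13.1 percentile of all genes. Rps18, a head protein close to the transfer RNA in the P site, fell by 0.90 ± 0.13 (adjusted p = 0.0474), and its reads overlap in sequence with those of Rps18-ps3. Rps14 fell by 1.02 ± 0.17 (adjusted p = 0.0849) and Rps15 by 1.00 ± 0.19 (adjusted p = 0.0951). Rps23, a protein of the decoding centre, fell by 0.73 ± 0.14 (adjusted p = 0.0951). Other called values were -0.66 for Rps13, -0.72 for Rps7, -0.77 for Rps15a, -0.85 for Rps27 and -1.08 for Rps27rt. The counts of Rps27 and Rps27rt cannot be kept apart reliably, so they are not separate cases.

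Some members had changes as large without passing the test. Rps12 stood at -1.02 ± 0.23 (adjusted p = 0.298), Rps21 at -1.004 ± 0.30 (adjusted p = 0.943) and Rps26 at -0.91 ± 0.30 (adjusted p = 0.993). The values nearest to 0 were those of Rps27l (0.02 ± 0.19), Rps16 (-0.24 ± 0.47), Rps3a1 (-0.28 ± 0.16) and Rpsa (-0.30 ± 0.15). Rps27a, which is made as a fusion with ubiquitin, stood at -0.32 ± 0.15, and Rps6 at -0.46 ± 0.14 (adjusted p = 0.984). The count of called members depends on the test: it was 0 when the lysate was not a block, 5 with an analysis of partial variance and 20 with DESeq2. It was 0 without experiment 1, 0 without experiment 3 and 20 without experiment 2, while the median over the 33 genes stayed negative under every alternative run.

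**Figure D3:**
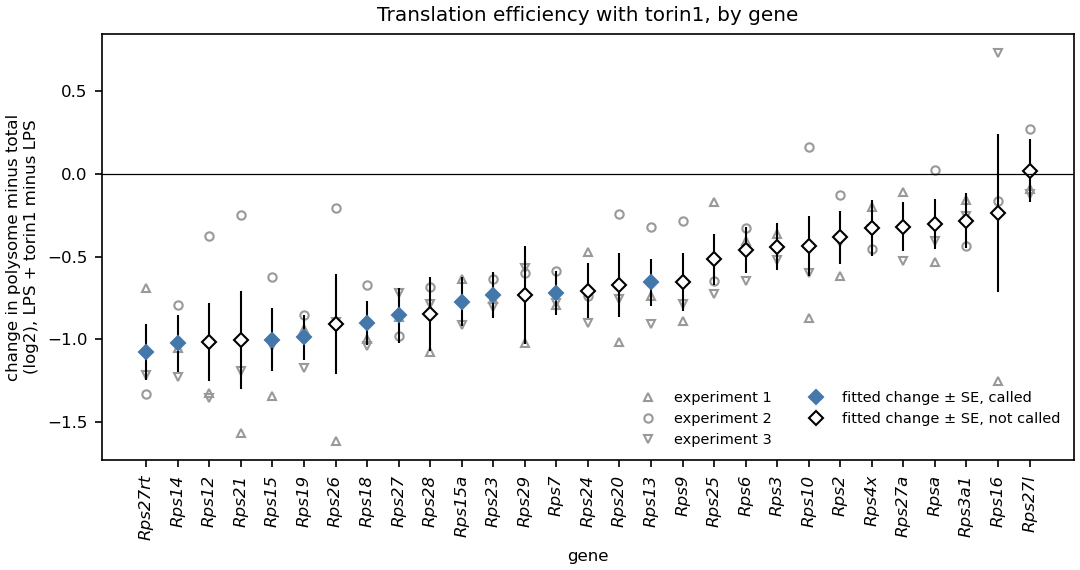
Change in polysome minus total (log2, y axis) from LPS to LPS with torin1 for 29 of the 33 genes (x axis): grey symbols are the 3 experiments, diamonds the fitted change ± SE, filled where called. The fitted values run from -1.08 (Rps27rt) to 0.02 (Rps27l).

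By place in the subunit, the head proteins and those of the body and platform had similar fitted medians with torin1 relative to LPS. Of 14 head genes, 4 were called for lower TE with torin1 and the median change was -0.70. Of 17 body and platform genes, 6 were called, with a median of -0.66. By experiment the TE medians were -1.005, -0.55 and -0.74 in the head and -0.63, -0.43 and -0.78 in the body and platform. Over all genes 0.222% were called lower. In polysome-associated mRNA, 12 of the 14 and 15 of the 17 were called lower (18.2% of all genes), with medians of -0.66 and -0.75. Relative to control, the TE medians of LPS with torin1 lay further apart, at -0.80 in the head and -0.49 in the body and platform. By experiment they were -0.73, -0.69 and -0.87 in the head and -0.42, -0.55 and -0.61 in the body and platform. The 2 lists were not tested against each other.

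Against control cells, LPS with torin1 left the small subunit genes slightly higher in total mRNA and lower on polysomes. These comparisons use the same LPS with torin1 libraries as those above and the same control libraries as the LPS comparison. The median change was 0.21 in total mRNA, -0.28 in polysome-associated mRNA and -0.59 in TE. In total mRNA 16 of 33 were called higher (33.1% of all genes) and only Rps27l lower (33.6% of all genes). With library totals alone the total mRNA median was -0.09, with 1 gene called higher and 6 lower. Without composition scaling the median over all genes was -0.30.

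The highest total change was that of Rps16 (0.87 ± 0.49, adjusted p = 0.173), followed by Rps9 (0.55 ± 0.11, adjusted p = 0.00247) and Rps29 (0.48 ± 0.16, adjusted p = 0.0281). Rps3a1 was among the lowest at 0.10 ± 0.12 (adjusted p = 0.515). Total Rps9 was 591, 549 and 551 CPM in control cells and 841, 906 and 730 CPM with LPS and torin1. In polysome-associated mRNA 13 of 33 were called, each lower, where 29.7% of all genes were called lower. Rps12 fell by 0.70 ± 0.25 (adjusted p = 0.0534), Rps21 by 0.66 ± 0.34 (adjusted p = 0.155) and Rps19 by 0.64 ± 0.16 (adjusted p = 0.0106), while Rps4x (0.21 ± 0.18), Rps3a1 (0.11 ± 0.18) and Rpsa (0.02 ± 0.20) had values above 0 and were not called. The count was 6 without experiment 1, 1 without experiment 3 and 29 with library totals alone. With that scaling the polysome median over all genes was also lower, at -0.30.

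For TE, 2 of 33 were called against control, Rps18 and Rps19, each lower, where 0.0267% of all genes (3 genes) were called lower. Rps19 fell by 0.80 ± 0.13 and Rps18 by 0.75 ± 0.13 (adjusted p = 0.229 for both). At an unadjusted p under 0.05 there were 26 members and 820 of all genes. The lowest values, Rps21 at -1.04 ± 0.30, Rps29 at -1.03 ± 0.30 and Rps12 at -1.01 ± 0.24, were not called, and the highest were 0.19 ± 0.19 for Rps27l, -0.00 ± 0.16 for Rps3a1 and -0.02 ± 0.17 for Rps4x. The count was 24 without experiment 2, 1 without experiment 3 and 13 with DESeq2. It was 0 without experiment 1, without the lysate as a block, with the analysis of partial variance, with RLE size factors and with library totals alone.

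Rps27rt and Rps27l, both paralogs of Rps27, held the lowest and the highest fitted torin1 change in TE. Rps27l is a paralog known as a target of p53, and Rps27rt is an intronless copy of Rps27. Rps27 and Rps27rt are identical over their 252 coding bases, so their counts cannot be kept apart reliably, and Rps27l differs from both at 60 of 252 positions (76.2% identical). On polysomes Rps27 had 382, 778 and 502 CPM in control, 1057, 810 and 732 CPM with LPS and 451, 446 and 404 CPM with LPS and torin1. Every LPS value lay above every torin1 value. Rps27rt followed the same order at a lower level, with 230, 160 and 186 CPM with LPS and 104.7, 83.9 and 78.2 CPM with torin1.

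Total Rps27l was 100.1, 102 and 92.5 in control, 109.5, 103.3 and 73.7 with LPS, and 71.7, 73.3 and 63.5 CPM with LPS and torin1. Total Rps27l fell by 0.50 ± 0.14 with LPS and torin1 relative to control (adjusted p = 0.0146), with no overlap of the groups, and with library totals alone the change was -0.80. On polysomes it had 138, 237 and 162 CPM in control, 225, 219 and 136.3 CPM with LPS and 138, 187 and 108 CPM with torin1, and these groups overlapped. Its polysome minus total difference was 0.83 ± 0.38, 1.00 ± 0.10 and 1.02 ± 0.30 in the 3 treatments (log2, SD, n = 3). It was thus the member with the highest polysome association after torin1, at the 98.5 percentile of all genes, compared with 68.6 for Rps27 and 56.8 for Rps27rt. That Rps27l differs from other members in its response was not tested.

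**Figure D4:**
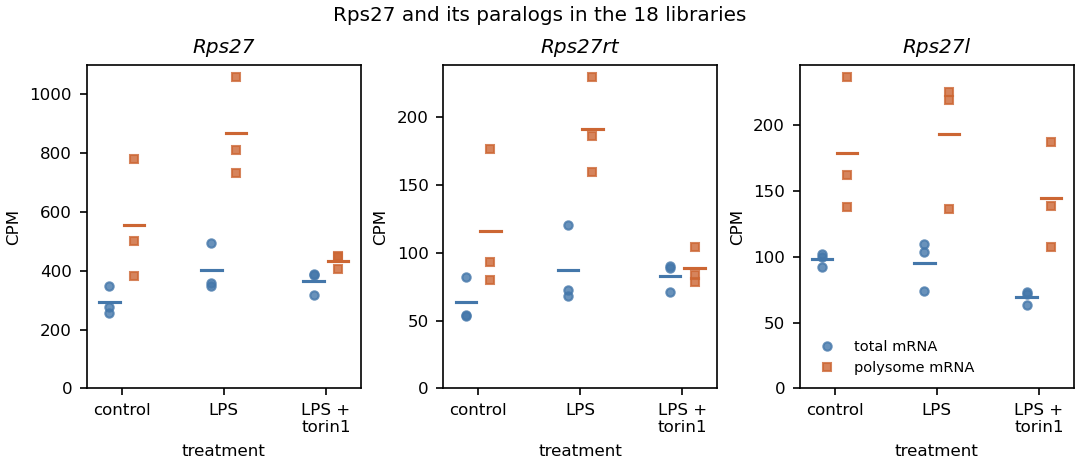
CPM (y axis, from 0) of Rps27, Rps27rt and Rps27l in the 18 libraries by treatment (x axis), with total mRNA as blue circles, polysome-associated mRNA as orange squares and the mean of 3 experiments as a line. Polysome Rps27 falls from 866 with LPS to 434 with LPS and torin1 on average, and total Rps27l from 95.5 to 69.5.

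Rps16 had the widest spread between experiments. Its total CPM was 96.9, 32.8 and 44.4 in control, 52.3, 124.9 and 93.9 with LPS and 156, 117.3 and 45.2 with LPS and torin1. On polysomes the values were 214, 186 and 55.5 CPM, then 105.3, 264 and 74.5 CPM, then 132, 221 and 59.4 CPM. All groups overlapped, and the SE of its changes was 0.47 to 0.60, against 0.10 to 0.40 for other members in these fits. Every coding window of Rps16 is shared with other annotated transcripts, and the part of this in the spread was not tested.

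Small subunit genes of shorter coding length tended to have the larger torin1 changes. Across the 33 genes the change in TE from LPS to LPS with torin1 rose with coding length (Pearson's r = 0.47, Spearman's rho = 0.51, n = 33), which means smaller falls in longer genes. The 17 genes with 168 to 438 coding bases had a median change of -0.77, and the 16 genes with 453 to 885 bases one of -0.45. Large subunit genes gave r = 0.65 and rho = 0.54 (n = 50), and all genes with a coding length r = 0.09 and rho = 0.18 (n = 10755). In control cells shorter members also had the higher polysome minus total difference (r = -0.56, rho = -0.51). With LPS that difference gave r = -0.55 and rho = -0.49, and with LPS and torin1 r = -0.19 and rho = -0.16. The torin1 change thus contains a starting value that itself went with coding length. With the length of the pyrimidine run at the annotated start the torin1 change gave r = -0.23 and rho = -0.27 over the 25 genes with a start. The percentage of shared coding windows gave r = 0.13 and rho = 0.12 with the torin1 change in TE. With the LPS change in total mRNA it gave r = 0.42 and rho = 0.51 (n = 33), and the part of shared reads in this was not tested. These are descriptions across genes of the same libraries, in which genes share depth and scaling and are not independent replicates.

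**Figure D5:**
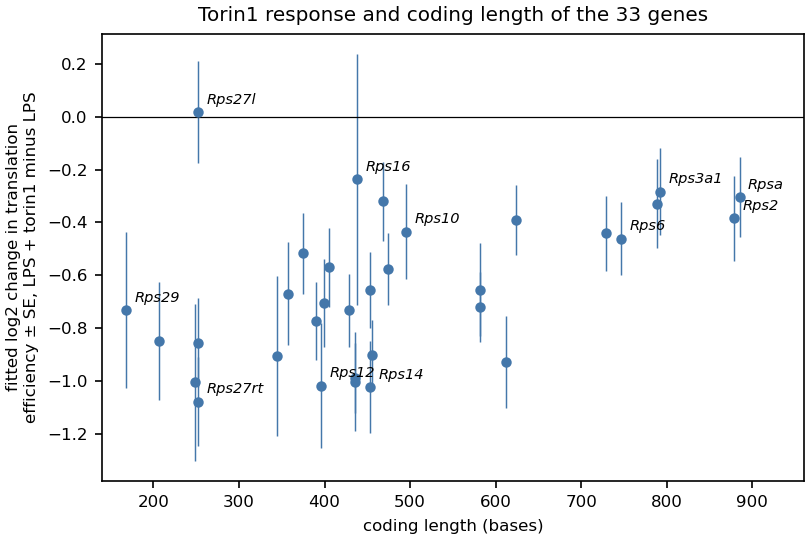
Coding length in bases (x axis) and fitted log2 change in translation efficiency ± SE from LPS to LPS with torin1 (y axis) of the 33 genes, with some named. The longest genes, such as Rpsa and Rps2, lie at -0.30 and -0.38, and Rps27l and Rps16 lie apart from others of their length.

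The annotated starts with the TOP form did not all go with large changes. Of the 7 genes with that form, Rps27rt (-1.08), Rps21 (-1.004), Rps18 (-0.90), Rps27 (-0.85) and Rps15a (-0.77) had torin1 changes in TE below the median of the family, while Rps6 (-0.46) and Rps10 (-0.43) lay above it. Rps12 (-1.02), Rps15 (-1.002) and Rps19 (-0.99) had large changes without the form at an annotated start. The starts shown above without it, Rps27l (0.02), Rpsa (-0.30) and Rps4x (-0.33), had small changes. They do not stand for all starts without the form, among which Rps26 also had a large change (-0.91).

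Outside the rule, the small subunit also holds the products of Fau, made as a fusion with a ubiquitin-like protein, and Rack1, which is listed under its older symbol Gnb2l1. Fau on polysomes fell by 0.71 with torin1 relative to LPS (adjusted p = 0.19), and Gnb2l1 stood at -0.29 (adjusted p = 0.34). Their TE changes were -0.72 and -0.32, neither of which was called. The S6 kinase genes Rps6kb1 and Rps6kb2, whose products act downstream of mTOR, had TE changes of 0.06 and -0.12 and polysome changes of -0.06 and -0.33, none called.

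Of the 25 genes for assembly factors of the small subunit, 20 were called lower in total mRNA with torin1 relative to LPS (median -0.42), where 26.4% of all genes were called lower. On polysomes 13 of the 25 were called lower (median -0.37), where 18.2% of all genes were. Their median TE change was 0.01 with 0 called by edgeR and 0 at an unadjusted p under 0.05. Noc4l fell by 0.84 in total mRNA (adjusted p = 0.000563) and by 0.85 on polysomes (adjusted p = 0.00534), and Nop58, a core protein of box C/D small nucleolar particles, fell by 0.78 in total mRNA (adjusted p = 0.00636). In the small subunit genes 4 of 33 were called lower in total mRNA and 28 of 33 on polysomes. Of the large subunit genes, 40 of 50 were called lower on polysomes (median -0.63), 10 of 50 in TE (median -0.54) and 10 of 50 in total mRNA (median -0.11). The lists were not tested against each other.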

How the data were processed

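Total RNA and pooled heavy polysome RNA of RAW264.7 lysates were sequenced in 18 libraries. The values are raw read counts per gene as the authors deposited them: per the study's methods, reads of stranded libraries depleted of ribosomal RNA were aligned to GRCm38 with Hisat2 and counted with featureCounts on an Ensembl annotation, whose version and strand setting are not given in the sources used here. Only protein-coding genes without a 0 count were in the table (lowest count 1), and 0 columns were left unused. Requiring a count in every library removes weakly expressed genes and leaves no member at 0.

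Each RNA type was fitted over all 11243 genes with edgeR 4.0.16 in R 4.3.3 (quasi-likelihood test, TMM, 9 libraries, Benjamini-Hochberg). The model of these fits held treatment only, so their tests did not pair libraries of the same experiment. Translation efficiency was the interaction of RNA type and treatment over 18 libraries with the lysate as a block, and needed a fold of at least 1.2. A false discovery rate of 0.25 was used throughout, as in the study. The study's own tool, anota2seq, was not used here. Levels are TMM-scaled CPM (per kb of coding length between genes, since annotated retained introns lengthen the exon unions first planned), with a prior count of 0.5 on the log2 scale. The scripts were tested on simulated data. The members, gene lists and tests were chosen with earlier results of these data known, including a fit without the lysate block. Named genes were, in each comparison, the 3 highest and 3 lowest members, members called against the prevailing direction or left uncalled where most were called, and Rps6, Rpsa, Rps27a and the Rps27 paralogs. Others, such as the per-library examples and the large uncalled changes, were picked after their values were seen. Values of some members are not reported here by name, though all counts and medians include them.

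Deviations from the group mean in total and polysome libraries of a lysate correlated by 0.389 to 0.649 over genes in all 9 lysates. Between same-numbered libraries of different treatments the correlation was at least 0.149 in total RNA and -0.0923 to 0.74 in polysome RNA. The experiments are independent cultures per the methods. Replicate libraries differed by more than sampling noise. Alternatives were DESeq2 1.42.0, an analysis of partial variance with limma 3.58.1, other scalings, filters, blocks and samples.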

Additional observations from a re-analysis of the deposited data

Results flagged for a closer look

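In the 12 genes named next, total mRNA was above and polysome-associated mRNA below control in all 3 experiments when LPS was given with torin1, so the 2 RNA types moved in opposite directions. The mean log2 changes over experiments in total and polysome-associated mRNA were 0.14 and -0.21 for Rps3, 0.21 and -0.36 for Rps7, and 0.25 and -0.55 for Rps14. They were 0.21 and -0.66 for Rps15, 0.27 and -0.48 for Rps18, 0.14 and -0.67 for Rps19, 0.37 and -0.22 for Rps20, and 0.24 and -0.80 for Rps21. In Rps23 they were 0.18 and -0.47, in Rps26 0.29 and -0.63, in Rps28 0.39 and -0.52, and in Rps29 0.48 and -0.55. Among these genes the interaction of RNA type and treatment (edgeR) passed the threshold in Rps18 and Rps19. The upward total values hold relative to the TMM scaling. With library totals alone the fitted total change was above 0 in Rps20, Rps28 and Rps29 and below 0 in the other 9. The median over the 33 genes was then -0.09, against -0.30 over all genes.

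Rps9 did the same with torin1 relative to LPS, at 0.19 in total and -0.47 in polysome-associated mRNA (mean log2 change, n = 3), and its interaction was not called (adjusted p = 0.66).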

How the results depend on the processing

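Counts of called members moved more than the median changes, and LPS against control depended most on the scaling. The shares of all genes called under the alternatives are not given, here or above. A moved count is therefore not read as particular to the members. At a false discovery rate of 0.05 the counts in total mRNA were 7 for LPS against control, 1 for LPS with torin1 against LPS and 5 for LPS with torin1 against control, those on polysomes 6, 16 and 3, and those in TE 3 and 0 for the comparisons with torin1. In total mRNA, LPS with torin1 against LPS gave 8 with the replicate block, 1 with one model over 18 libraries and 2 with only the 2 treatments compared, and LPS with torin1 against control gave 7 with one model. For TE with torin1 against LPS the counts were 0 with no replicate block, 7 with the block by experiment only, 20 with DESeq2, 5 with partial variance and 4 with only the 2 treatments. Against control they were 0 with no replicate block, with the block by experiment only, with partial variance, with RLE size factors and with only the 2 treatments, and 13 with DESeq2. The block changed no other count by more than 1.5 times. The cause of these moves was not tested, except that a stricter threshold cannot call more. Fewer samples did not always call fewer.

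Leaving out each experiment in turn gave 16 to 21 called in total mRNA with LPS, 1 to 5 with torin1 against LPS and 12 to 16 with torin1 against control. On polysomes the ranges were 0 to 21, 13 to 32 and 1 to 19. In TE they were 0 to 20 with torin1 against LPS and 0 to 24 against control, with 0 throughout for LPS alone. Without experiment 2, polysome-associated Rpsa with torin1 against control was -0.27 (called) instead of 0.02, and without experiment 1 it was 0.17. All medians kept their sign in these runs.

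With library totals alone, chosen after seeing the data, the median of all genes lay at -0.38 for LPS against control in both RNA types, and the medians of the 33 genes in total mRNA turned to -0.085, 0.012 and -0.087 in the 3 comparisons, with 5, 2 and 7 called. On polysomes the medians were 0.058 with 0 called for LPS against control and -0.58 with 29 called for torin1 against control. In the latter the median over all genes was -0.30. In TE 0 were called for torin1 against control. Of genes called under either scaling, these are examples whose direction in total mRNA with LPS turned: Rps3 -0.081, Rps3a1 -0.10, Rps4x -0.10, Rps6 -0.037, Rps7 -0.10, Rps9 -0.0043, Rps14 -0.085, Rps15 -0.18, Rps15a -0.13, Rps18 -0.10, Rps19 -0.20, Rps20 -0.010, Rps24 -0.043, Rps25 -0.054, Rps27a -0.095 and Rpsa -0.21. With torin1 against control these turned, among others: Rps3 -0.16, Rps3a1 -0.20, Rps6 -0.025, Rps7 -0.087, Rps14 -0.053, Rps15 -0.080, Rps18 -0.030, Rps19 -0.16, Rps23 -0.12, Rps24 -0.038, Rps27a -0.18 and Rpsa -0.084. On polysomes with LPS, Rps19 (-0.0028) turned. The values named as turned all lay above the median over all genes of that scaling. In total mRNA that median was -0.38 with LPS and -0.30 with torin1 against control. With torin1 against LPS 26 members were called on polysomes and 11 in TE, each lower.

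The lowest count of a member in any library was 1039 (Rps2), so the spread between 3 experiments limits the precision more than counting does.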
